A study of Mus musculus with 864 samples.

Results

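The genes described here are 7 channels of the transient receptor potential (TRP) family, Trpv1, Trpv2, Trpa1, Trpm2, Trpm3, Trpm8 and Trpc6, out of 23281 genes measured in single cells of the mouse dorsal root ganglion. They were chosen by name, and none of them was listed at more than 1 locus. Their values were read in 694 of 799 wells described as holding a single cell, namely those with 1000 or more genes above 0. All cells came from lumbar ganglia (L4 to L6) of C57/Bl6 mice 6 to 8 weeks old for which the labels name no transgene and no treatment. Cells were picked by hand under visual control after enzymatic dissociation and Percoll enrichment, so the sample is what survived dissociation and was chosen for picking. There were 5 preparations, numbered 1 to 5 below. Session A gave males (preparation 1, 30.8% of the cells) and females (preparation 2, 6.48%), session B males alone (preparation 3, 25.4%), and session C males (preparation 4, 26.5%) and females (preparation 5, 10.8%). Sessions A and B were picked at room temperature and session C with cooling. The labels name no animal, so the spread between preparations is the only replicate error that can be given.

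TRP channels are cation channels whose opening depolarises sensory endings. In somatosensory neurons, Trpv1 opens to capsaicin, acid and noxious heat, Trpm8 to menthol and cold, Trpa1 to mustard oil and other electrophiles, and Trpm3 to pregnenolone sulfate and heat. Trpm2 is gated by ADP-ribose and oxidative stress, Trpv2 responds to strong heat in heterologous cells, and Trpc6 is gated by diacylglycerol. Sensory neurons fall into types that differ in the stimuli they carry, and several types have a marker gene of long standing. Th marks low-threshold C mechanoreceptors, Mrgprd non-peptidergic nociceptors, Mrgpra3 and Sst neurons linked to itch, Tac1 (the substance P precursor) peptidergic neurons, and Pvalb proprioceptors and some large mechanoreceptors.

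Values are RPM, reads of 5′-end tags scaled to a common total of 1000000, counted without molecular identifiers, so they are shares of reads rather than counts of molecules. A median of 139630 reads stood behind a cell, with a range from 2459 to 31963400. Depth followed the session. Medians of preparations 1 to 5 were 15421, 15597, 198657, 1526080 and 2573230 reads. A single read was therefore worth 64.8 RPM in the median session A male cell and 0.389 RPM in the median session C female cell. For this reason a share of cells above 0 is given together with the share at 100 RPM or more and the share after each cell was thinned to 5000 reads, where 1 read is worth 200 RPM. Confidence intervals are 95% Wilson intervals and, like the limits given for counts of 0, cover counting error only.

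Trpv2 was the member found in the largest share of cells and Trpm8 in the smallest. Trpv2 was above 0 in 322 of 694 cells (46.4%, interval 42.7 to 50.1), Trpm2 in 25.4% (22.3 to 28.7) and Trpa1 in 23.8% (20.8 to 27.1). Trpc6 was above 0 in 75 cells (10.8%, 8.71 to 13.3), Trpv1 in 65 (9.37%, 7.42 to 11.8), Trpm3 in 54 (7.78%, 6.01 to 10.0) and Trpm8 in 21 (3.03%, 1.99 to 4.58). Neighbours in this order had overlapping intervals for Trpm2 and Trpa1, for Trpc6 and Trpv1 and for Trpv1 and Trpm3. At 100 RPM or more the shares were 16.6% for Trpv2, 8.93% for Trpa1, 4.32% for both Trpv1 and Trpc6, 4.03% for Trpm2, 2.45% for Trpm3 and 0.720% for Trpm8. In the 670 cells with enough reads to be thinned, they were 15.4% for Trpv2, 9.40% for Trpa1, 5.22% for Trpm2, 4.33% for Trpv1, 3.58% for Trpc6, 2.24% for Trpm3 and 0.597% for Trpm8. Trpm2 thus stood level with Trpa1 only in the count of cells above 0. Most positive cells held little of a channel. The median positive cell had 92.3 RPM of Trpv1, 75.4 of Trpc6, 73.3 of Trpa1, 66.1 of Trpv2, 42.5 of Trpm3, 19.5 of Trpm8 and 16.3 of Trpm2, while the highest cells reached 2485 RPM for Trpm3, 2018 for Trpv2, 1689 for Trpm8 and 1287 for Trpm2.

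The level of Trpv2 and Trpa1 varied little between preparations, and that of the other members varied more. The mean level of Trpv2 over all cells of a preparation was 55.4, 45.2, 45.7, 40.7 and 46.6 RPM in preparations 1 to 5 (46.7 ± 5.35 RPM, SD, n = 5). For Trpa1 it was 27.9, 21.9, 25.9, 25.9 and 20.98 RPM (24.5 ± 2.93, SD, n = 5). For both genes the SD was small against the mean, and no session stood apart. Trpv1 averaged 17.9, 1.28, 28.6, 14.4 and 8.99 RPM (14.2 ± 10.2, SD, n = 5), with the 45 session A female cells far below the rest. Trpc6 averaged 12.7, 21.6, 9.43, 8.39 and 15.6 RPM (13.6 ± 5.34), Trpm3 7.45, 25.7, 2.44, 18.7 and 16.1 RPM (14.1 ± 9.23) and Trpm8 6.15, 0, 1.99, 9.96 and 16.3 RPM (6.88 ± 6.52), each over n = 5 preparations. In Trpm3 and Trpm8 the SD was of the order of the mean, and in Trpm8 the session A females had no read at all.

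**Figure D1:**
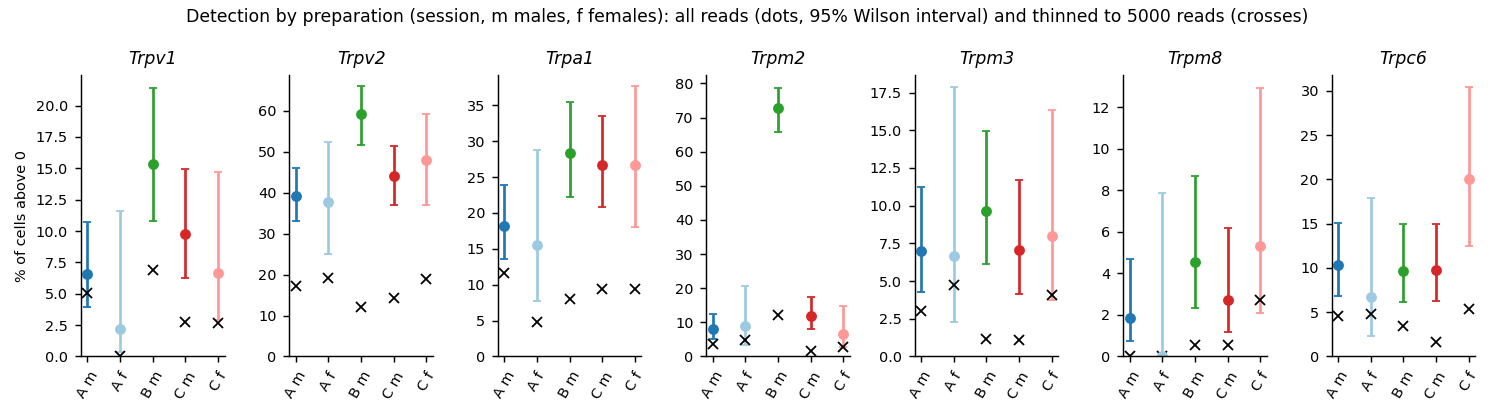
Share of single cells (percent) with each TRP channel in each of the 5 preparations, before and after thinning to 5000 reads. The Trpm2 share above 0 was 72.7% in session B males and between 6.67% and 11.96% in the other preparations, while after thinning it was 12.1% in session B and at most 4.76% elsewhere.

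Cells were gated on 6 marker genes, each passed at 100 RPM or more. Cells passing exactly 1 gate numbered 54 for Th, 19 for Mrgprd, 10 for Mrgpra3, 4 for Sst and 40 for Pvalb, and made up 15.7% of all cells for Tac1, while 318 cells passed several gates and 140 none. Tac1 was the broadest of the gates, passed by 419 cells (60.4%). Of the 252 cells that passed Th, 76.2% also passed Tac1, as did 73 of the 95 that passed Mrgprd (76.8%). The Tac1 transcript at this threshold is therefore no mark of 1 cell type. A further grouping, chosen after these overlaps had been seen, set Tac1 aside: the other 5 genes alone placed a cell, and the Tac1 group held cells with 1000 RPM or more of Tac1 and none of the 5. It gave 220 Th, 76 Mrgprd, 16 Mrgpra3, 7 Sst, 67 Tac1 and 83 Pvalb cells. Only the gate genes define these groups, so they are called gates below.

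The gates were checked against other markers. The pan-neuronal genes Tubb3, Uchl1, Snap25 and Sncg were detected in every gate, with a summed level of 13830 to 35503 RPM. In limma, 3 of 3 further markers of the Th type and 3 of 3 of the Mrgprd type were higher in their own gate. So were 2 of 3 for Pvalb (Runx3 and Spp1). The Th marker Gfra2 was also called higher in the Mrgprd gate. In the Tac1 gate Gal was called higher, while Calca was not called. The Mrgpra3 and Sst gates had enough cells for a pooled value in 1 preparation each, and were not tested. Transcripts of non-neuronal cells were present too. The Schwann cell gene Mbp and the mural cell gene Rgs5 were higher in the Th gate (log2 differences 3.48 and 4.15). In the Mrgprd gate the mural cell gene Pdgfrb was higher (2.87), but Rgs5 was called lower. The 3 mural genes thus did not move together. Their median difference was -0.60 in Th and -0.64 in Mrgprd, beside 0.03 and -0.46 over all genes. In the Tac1 gate, on which the Trpv1 and Trpm8 results rest, no non-neuronal marker was called, but their summed levels differed widely between the 4 profiles: 0.819 to 6929 RPM for 4 fibroblast genes, 499.9 to 4236 RPM for 4 Schwann cell genes (Mag at 0), 202.8 to 2549 RPM for 5 satellite glial genes and 0 to 338 RPM for 3 endothelial genes. The median differences there were 1.80 for fibroblast and 1.38 for Schwann cell genes, beside 0.16 over all genes. Their part in the channel results was not tested. Wells with several cells per their labels were left out, and no doublet caller was run.

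The comparison across gates asked which sensory neuron types carry each channel. Within a preparation the RPM of at least 3 cells of a gate were averaged, giving 17 pooled profiles of the 4 testable gates. By limma, each gate was set against the mean of the remaining 3 on log2(mean RPM + 5), with the preparation as a block. On this scale the change of low genes is understated, and where a gate was at 0 the difference depends on the 5 RPM added. Adjusted p-values are Benjamini-Hochberg over 9904 genes, called at 0.05. Of the 7 channels, 1 was higher in the Tac1 gate (Trpv1), where 0.454% of all genes were called higher and 0.0404% lower. The Mrgprd gate had 1 higher (Trpc6), against 1.67% of all genes called higher and 5.12% lower. The Pvalb gate had 1 lower (Trpa1), against 2.67% of all genes called lower and 3.98% higher. In the Th gate limma called 0 of the 7, against 1.09% of genes higher and 0.495% lower, with 2 channels (Trpc6 and Trpv1) at an unadjusted p below 0.05 and 0 called by edgeR. With so few channels each count rests on 1 gene, and the values behind it follow.

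**Figure D2:**
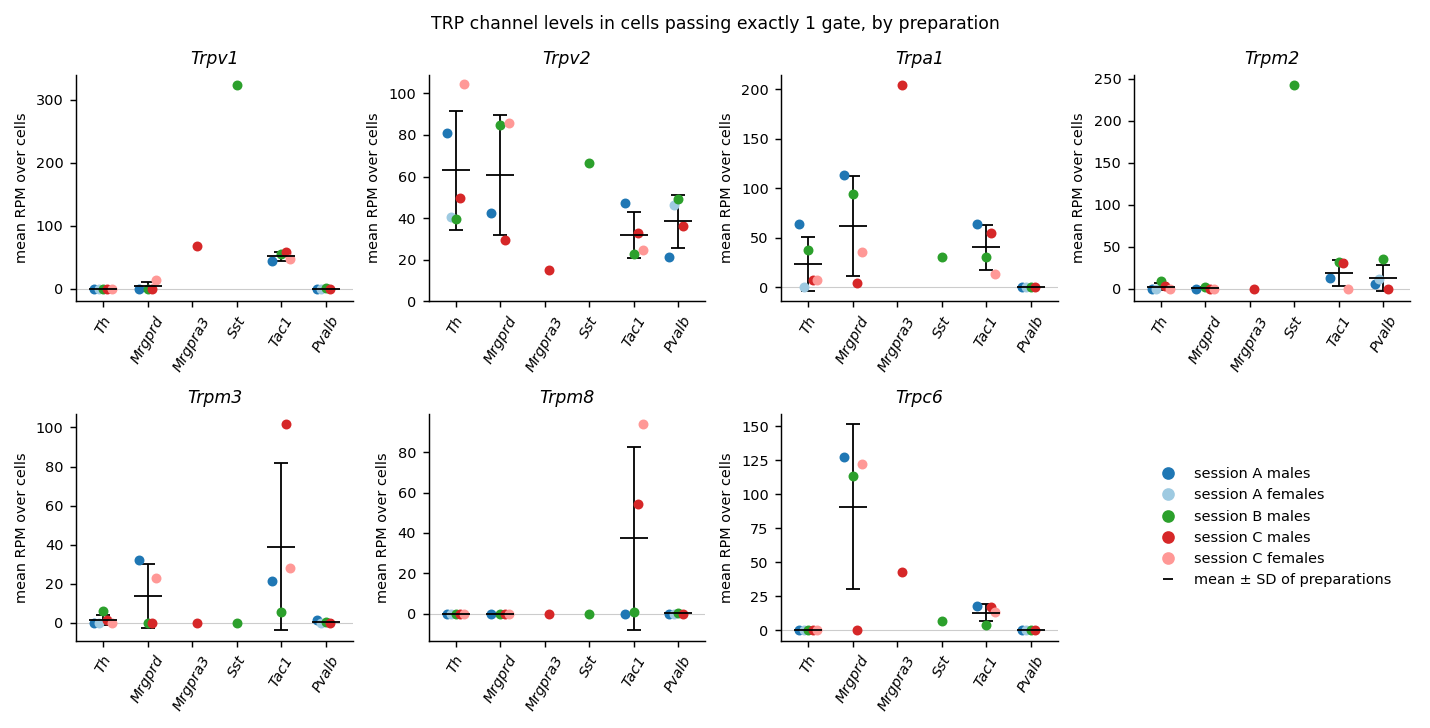
Mean level of each TRP channel (RPM) in each gate, 1 point per preparation with 3 or more cells of that gate and a bar at the mean. Trpv1 lies between 44.3 and 58.4 RPM in the 4 Tac1 points and at 0 in the 5 Th points, and Trpc6 reaches 113.4 to 127.3 RPM in 3 of the 4 Mrgprd points.

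**Figure D3:**
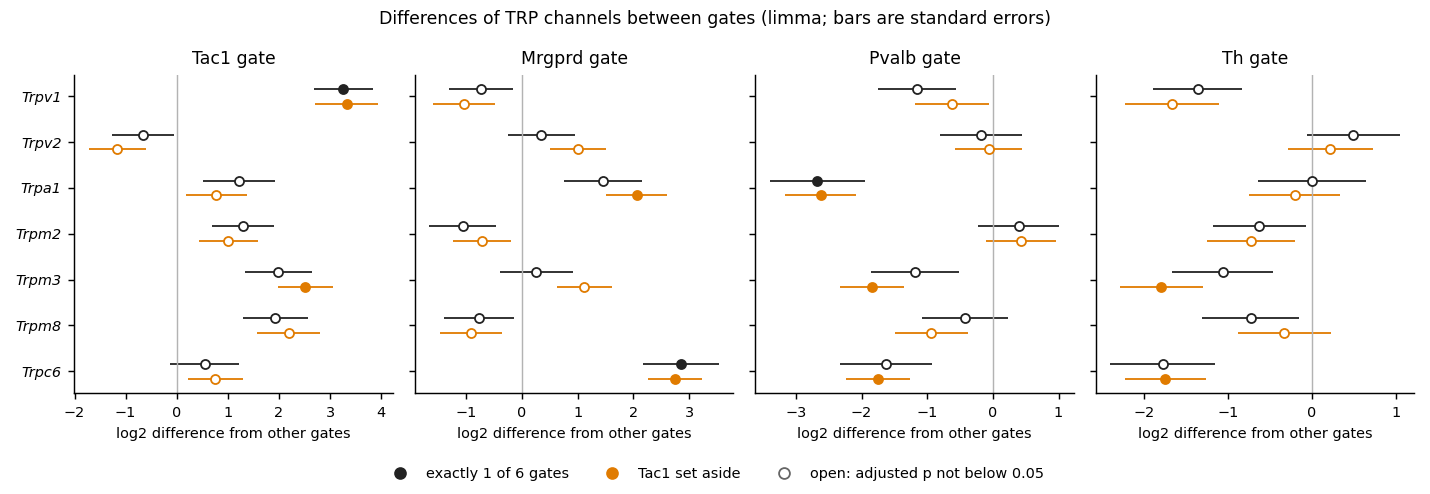
Difference of each channel in each testable gate from the mean of the other gates (limma, log2 of mean RPM + 5, with standard errors), for cells passing exactly 1 of 6 gates and with Tac1 set aside. The Trpv1 difference in the Tac1 gate (3.26 and 3.32) and the Trpc6 difference in the Mrgprd gate (2.86 and 2.75) are nearly the same in both groupings.

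Trpv1, the capsaicin and heat receptor, was concentrated in the Tac1 gate and in the few Sst and Mrgpra3 cells. Its mean level in the Tac1 gate was 44.3 RPM in session A males, 55.1 in session B males, 58.4 in session C males and 47.4 in session C females (51.3 ± 6.54 RPM, SD, n = 4). In the Th gate it was 0 in all 5 preparations, in the Mrgprd gate 0, 0, 0 and 14.4 RPM, and in the Pvalb gate 0, 0, 0.538 and 0 RPM. Every Tac1 value lay above every value of the other 3 gates. The limma difference was 3.26 ± 0.57 (log2, SE; adjusted p = 0.00131). It was 3.32 ± 0.62 with Tac1 set aside (limma adjusted p = 0.00188), with 69.99, 76.6, 100.4 and 87.5 RPM in the 4 Tac1 groups. The highest value was 5.63 RPM in the Th groups, 22.2 RPM in the Mrgprd groups and 22.1 RPM in the Pvalb groups. In that grouping 0.816% of all genes were higher in the Tac1 gate. The call was kept in 16 of 19 alternatives. It was lost after thinning (3.10, limma adjusted p = 0.0571), in edgeR (8.53, adjusted p = 0.0845) and without session B (3.17, limma adjusted p = 0.0558).

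In single cells, Trpv1 followed the amount of Tac1 rather than its presence. At 100 RPM or more, Trpv1 was in 1.45% of the 275 cells with less than 100 RPM of Tac1, 1.20% of the cells from 100 to 1000 RPM, 3.72% of those from 1000 to 10000 RPM and 26.6% of the 64 cells at 10000 RPM or more. The step was at the top of the range, and it was present in each preparation with such cells: 8 of 32 in session A males, 6 of 24 in session B males, 2 of 6 in session C males and 1 of 2 in session C females. Mean Trpv1 over the same 4 ranges was 7.49, 5.00, 14.8 and 102.5 RPM. These values share their libraries and are a description of the cells, with no test.

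**Figure D4:**
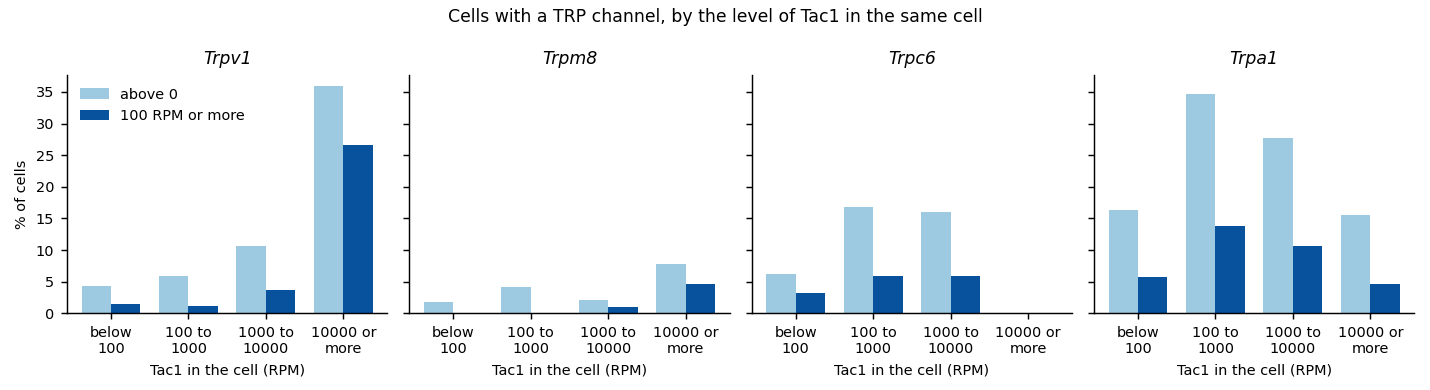
Percent of cells with each TRP channel by the Tac1 level of the cell (RPM, 4 ranges holding 39.6%, 24.1%, 27.1% and 9.22% of the cells). Trpv1 at 100 RPM or more goes from 1.45% in the lowest range to 26.6% in the highest. Trpc6 is at 3.27%, 5.99%, 5.85% and 0 from the lowest range to the highest.

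The 30 cells with 100 RPM or more of Trpv1 carried peptidergic transcripts. Calca, which encodes CGRP, was at 100 RPM or more in 29 of the 30 and in 266 of the 664 other cells. Tac1 was so in 26 of 30 and 393 of 664. Mrgpra3 was at that level in 6 of the 30 and 14 of the 664, while Th was so in 6 of 30, or 20%, and in 37.05% of the 664. The small itch-linked gates held Trpv1 as well. Trpv1 was at 100 RPM or more in 6 of the 20 cells that passed Mrgpra3 and 24 of the 674 that did not. For Sst it was so in 3 of 12 cells and 27 of the 682 others. Above 0, Trpv1 was in 7 of 20 Mrgpra3 cells and 58 of the 674 others. It was above 0 in 8 of 12 Sst cells and 57 of the 682 others. The single pooled values were 324 RPM in Sst (3 cells of session B) and 67.3 RPM in Mrgpra3 (4 cells of session C males), with no replicate. When each cell was put in the gate of its highest marker, Mrgpra3 could be tested over 3 preparations. Trpv1 was then higher there, at 48.3 to 208.1 RPM (103.4 ± 90.7 RPM, SD, n = 3; difference 3.19 ± 0.59, limma adjusted p = 0.000376), against 1.91% of all genes. With Tac1 set aside the same difference was 1.11 ± 0.69 (limma adjusted p = 0.309).

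The Trpv1 promoter window is shown because Trpv1 was called in 1 gate, whose 4 profiles lay above all profiles of the other 3. It spans 250 bases before to 50 after the RefSeq start in build GRCm38.p6, chr11:73233899-73234198, plus strand, in a table that held 6 of the 7 members.
Trpv1 promoter: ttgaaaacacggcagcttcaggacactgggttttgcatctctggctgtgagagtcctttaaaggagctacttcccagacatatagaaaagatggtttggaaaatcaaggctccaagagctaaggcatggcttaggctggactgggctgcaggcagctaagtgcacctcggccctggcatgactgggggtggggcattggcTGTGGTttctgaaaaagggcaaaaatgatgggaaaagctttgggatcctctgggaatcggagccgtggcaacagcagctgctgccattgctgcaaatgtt
The capitals mark TGTGGT, the core letters of the RUNX motif, searched on both strands (reverse ACCACA). RUNX1 and RUNX3 are factors of sensory neuron diversification. This string occurs in 16.7% of 32544 such windows, so 1 match is a description and not a site. The window has 51.7% GC and 4 CpG, where the medians over all windows are 53% and 7, and holds no TATAAA on either strand, which 13.6% of windows do.

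Trpm8, the menthol and cold receptor, was the rarest member, and 5 cells held 100 RPM or more of it. Mean levels in the Tac1 gate were 0 RPM in session A males, 0.827 in session B males, 54.3 in session C males and 93.9 in session C females (37.3 ± 45.5 RPM, SD, n = 4). The gene was listed at 0 in every Th, Mrgprd, Mrgpra3 and Sst profile and reached 0.449 RPM in 1 Pvalb profile. Cells that passed several gates did hold it. Over all cells passing Th, Trpm8 was above 0 in 8 of 252 (3.17%) and in 13 of the 442 others (2.94%), and with Tac1 set aside 1 of the 5 Th profiles reached 18.9 RPM. Within the cells of exactly 1 gate, the session C values in the Tac1 gate stood apart from those of sessions A and B. Most of them came from 1 male cell at 1689 RPM and 2 female cells at 604 and 617 RPM. The session A and B cells at 1249 and 306 RPM also passed Th, so they were not counted in the Tac1 gate. The difference of that gate did not pass the test (1.93 ± 0.63, limma adjusted p = 0.245), nor with Tac1 set aside (2.19 ± 0.61, limma adjusted p = 0.0801). In the 54 cells of the Th gate the count of 0 allows a share of up to 5.56%, and in the 19 Mrgprd cells up to 15.8%.

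All 5 cells with 100 RPM or more of Trpm8 also passed Tac1, among 419 cells that did and 275 that did not. Of the 5, 2 also passed Th. The session A male cell had 1249 RPM of Trpm8 from 6 reads, 53913 RPM of Tac1 and 208.2 RPM of Th. The session B cell had 306 RPM from 14 reads, 15378 RPM of Tac1, 1354 RPM of Th and 196.6 RPM of Pvalb, so it passed Pvalb too. The session C male cell had 1689 RPM of Trpm8 and 8043 RPM of Tac1. The session C female cells had 604 RPM from 1557 reads and 617 RPM from 939 reads. In the 5 cells Trpv1, Trpa1 and Trpc6 were all at 0, as were the endothelial genes Pecam1, Cldn5 and Flt1, while Sncg, a neuronal gene, lay between 4333 and 8681 RPM. None of the 5 reached 100 RPM of P2rx3 or Scn11a, which 29.2% and 49.9% of the 689 other cells did. For Nefh, a neurofilament gene of large neurons, 3 of the 5 did so, as did 53.7% of the 689.

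Trpa1, the irritant receptor, had no read in the Pvalb gate and was frequent among Mrgprd cells. Its mean level in the Pvalb gate was 0 in each of 4 preparations, and 0 of 40 cells had a read, which allows a share of up to 7.5%. Of all cells that passed Pvalb, whatever else they passed, 11 had a read (9.65%) and 3 had 100 RPM or more (2.63%). In the Mrgprd gate it was 113.1, 93.8, 4.30 and 35.4 RPM (61.6 ± 50.5 RPM, SD, n = 4) and in the Tac1 gate 63.3, 30.9, 54.2 and 13 RPM (40.3 ± 22.8, n = 4), in session A males, B males, C males and C females. In the Th gate it was 63.8, 0, 37.9, 6.94 and 6.94 RPM in preparations 1 to 5 (23.1 ± 27.1, SD, n = 5). The Mrgprd, Tac1 and Th values overlapped, and all Mrgprd and Tac1 values lay above Pvalb. The Pvalb difference was -2.67 ± 0.72 (limma adjusted p = 0.0159), and -2.62 ± 0.54 with Tac1 set aside (limma adjusted p = 0.000534). The call was kept in 14 of 19 alternatives and lost at a gate of 200 RPM (-2.13, limma adjusted p = 0.0990), after thinning (-2.57, limma adjusted p = 0.182), in sessions B and C alone (-2.66, limma adjusted p = 0.210), without preparation 1 (-2.18, limma adjusted p = 0.194) and without preparation 3 (-2.42, limma adjusted p = 0.153).

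The Trpa1 difference of the Mrgprd gate was 1.46 ± 0.70 and did not pass (limma adjusted p = 0.199), while with Tac1 set aside it did, at 2.06 ± 0.54 (limma adjusted p = 0.0113), over 60.5, 91.3, 93.4, 55.5 and 50.1 RPM in 5 preparations (70.2 ± 20.6, SD). In that grouping 3.3% of all genes were higher in the Mrgprd gate. Counting every cell that passed Mrgprd, whatever else it passed, Trpa1 was above 0 in 52 of 95 (54.7%) and in 18.9% of the other 599. The share inside the gate was 35.1%, 50%, 81.3%, 68.4% and 61.5% in preparations 1 to 5, and outside it 14.7%, 5.71%, 23.1%, 21.8% and 19.4%. It was larger inside in all 5. The 62 cells with 100 RPM or more of Trpa1 were mostly Scn11a cells: this sodium channel gene of small-diameter neurons was at that level in 54 of 62 and 290 of 632 others. P2rx3, the ATP-gated channel gene, was so in 35 of 62 (56.5%) and 26.3% of the 632. The 1 pooled Mrgpra3 profile (4 cells) stood at 204.4 RPM.

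Trpc6, the diacylglycerol-gated channel, was higher in the Mrgprd gate. Its mean level in the Mrgprd gate was 127.3 RPM in session A males, 113.4 in session B males, 0 in session C males and 122.3 in session C females (90.7 ± 60.8 RPM, SD, n = 4). It was 0 in all 5 Th profiles, at most 0.0980 RPM in Pvalb, and 17.99, 3.79, 17.1 and 13.3 RPM in Tac1 (13.04 ± 6.50, n = 4). The session C male profile, of 4 cells, was at 0, and the other Mrgprd profiles lay above every profile of the Th, Pvalb and Tac1 gates. The difference was 2.86 ± 0.68 (limma adjusted p = 0.00605). It was 2.75 ± 0.49 with Tac1 set aside (limma adjusted p = 0.000123), where all 5 Mrgprd groups held the gene at 64.6, 38.6, 83.4, 16.8 and 61.1 RPM (52.9 ± 25.7, SD).

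This call depended more on the grouping than that of Trpv1, holding in 12 of 19 alternatives. It was lost without preparation 1 (2.44, limma adjusted p = 0.0928), without preparation 3 (2.37, limma adjusted p = 0.0979) and in sessions B and C alone (2.43, limma adjusted p = 0.127). It was also lost with no filter on low values (limma adjusted p = 0.0613), at a gate of 200 RPM (2.04, limma adjusted p = 0.112), with 5 or more cells a profile (3.99, limma adjusted p = 0.0510) and by the highest gate gene (1.89, limma adjusted p = 0.0557). In all cells passing Mrgprd, Trpc6 was above 0 in 44 of 95, against 31 of the other 599. The shares inside were 40.5%, 30.0%, 56.3%, 36.8% and 76.9% in preparations 1 to 5, and outside 3.95%, 0, 5.00%, 6.67% and 8.06%, so each preparation had the larger share inside. Of the 252 cells that passed Th, 0 had 100 RPM or more of Trpc6, which allows a share of up to 1.19%, against 30 of the 442 others. With Tac1 set aside, Trpc6 was lower in the Th gate (-1.74 ± 0.49, limma adjusted p = 0.0293), where 1.15% of all genes were lower, and in the Pvalb gate (-1.76 ± 0.49, limma adjusted p = 0.0100), where 7.32% were. In contrast to Trpv1, it was at 0 in all 64 cells with 10000 RPM or more of Tac1, which allows a share of up to 4.69%.

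The Trpc6 promoter window is printed beside that of Trpv1, since these genes were called higher in different gates. It lies at chr9:8543892-8544191, plus strand, in the same RefSeq build and frame.
Trpc6 promoter: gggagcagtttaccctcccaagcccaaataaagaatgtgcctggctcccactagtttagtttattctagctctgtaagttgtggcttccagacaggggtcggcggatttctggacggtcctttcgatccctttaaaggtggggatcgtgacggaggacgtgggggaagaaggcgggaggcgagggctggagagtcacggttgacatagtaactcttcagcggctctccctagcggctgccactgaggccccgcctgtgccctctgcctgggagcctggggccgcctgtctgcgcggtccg
It holds neither TGTGGT nor TATAAA on either strand, so it has no capitals. The window has 60% GC and 17 CpG, against 51.7% and 4 in Trpv1.

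Trpm3, the pregnenolone sulfate receptor, was found in Tac1 and Mrgprd cells and hardly in cells that passed Th or Pvalb alone. Its Tac1 gate values were 21.1, 5.22, 101.7 and 27.7 RPM in session A males, B males, C males and C females (38.9 ± 42.9 RPM, SD, n = 4), and most of the 101.7 came from 1 cell with 2485 RPM. In the Mrgprd gate it was 31.9, 0, 0 and 22.8 RPM (13.7 ± 16.2, n = 4), in the Th gate at most 6.11 and in the Pvalb gate at most 1.53 RPM. The Tac1 and Mrgprd values overlapped. Of the 17 cells with 100 RPM or more of Trpm3, 3 passed Pvalb whatever else they passed (17.6%), as did 16.4% of the 677 others. Th was passed by 2 of the 17 (11.8%) and by 36.9% of the 677. No gate passed the test in the cells of exactly 1 gate (Tac1 gate 1.99 ± 0.65, limma adjusted p = 0.245). With Tac1 set aside Trpm3 was higher in the Tac1 gate (2.52 ± 0.54, limma adjusted p = 0.00987) and lower in the Th gate (-1.80 ± 0.49, limma adjusted p = 0.0260) and in the Pvalb gate (-1.84 ± 0.49, limma adjusted p = 0.00758). Over all cells passing Mrgprd, Trpm3 was above 0 in 22 of 95, against 32 of the other 599. Per preparation the shares were 21.6%, 30.0%, 25%, 15.8% and 30.8% inside and 3.95%, 0, 8.13%, 6.06% and 3.23% outside, larger inside in all 5. That difference did not pass in the means of the Mrgprd gate (1.12, limma adjusted p = 0.186, Tac1 set aside).

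Trpv2, found in more cells than any other member, was present in every profile of the 4 testable gates. It was 80.7, 40.3, 39.6, 49.9 and 104.5 RPM in the 5 Th profiles (63.01 ± 28.6 RPM, SD), 42.5, 84.6, 29.5 and 85.8 RPM in Mrgprd (60.6 ± 28.9), 21.5, 46.5, 49.2 and 36.4 RPM in Pvalb (38.4 ± 12.6) and 47.2, 22.5, 32.8 and 24.9 RPM in Tac1 (31.8 ± 11.1, n = 4 in the last 3). The ranges of all 4 gates overlapped. The limma differences ran from -0.66 in Tac1 (adjusted p = 0.911) to 0.49 ± 0.55 in Th (adjusted p = 0.823). Among all cells that passed a gate, Trpv2 was above 0 in 50.4% of 252 Th cells and in 60 of 95 Mrgprd cells (63.2%). It was present in 28.1% of the cells with 10000 RPM or more of Tac1, and in 45.1% of those under 100 RPM.

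Trpm2, the ADP-ribose-gated channel, stood apart in 1 session, and no gate passed the test. It was above 0 in 7.94%, 8.89%, 72.7%, 11.96% and 6.67% of the cells of preparations 1 to 5. Session B stood alone, with an interval of 65.7 to 78.8% and a low median positive level of 12.2 RPM. Its mean was 43.3 RPM in session B and 7.501, 5.17, 8.34 and 7.18 RPM in the other 4 preparations (14.3 ± 16.3 over all, SD, n = 5). Both session B plates had it, with 62 of 89 and 66 of 87 cells above 0. So did control wells of that session, which held no cell: Trpm2 was above 0 in 4 of 7 of them, at 228.5, 555.6, 1008 and 7246 RPM, but in 0 of 9 in session A and 0 of 16 in session C. Of the other members only Trpv1 had any control read, 1 read in 1 of 32 wells. How much of the cellular Trpm2 of session B was the signal seen in empty wells was not tested.

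By gate, Trpm2 was 13.6, 32.2, 31.4 and 0 RPM in Tac1 (19.3 ± 15.5 RPM, SD, n = 4) and 5.37, 11.4, 35.3 and 0.0582 RPM in Pvalb (13.04 ± 15.5, n = 4), while Th profiles held at most 9.61 and Mrgprd profiles at most 2.57 RPM. The Tac1 gate difference was 1.29 (limma adjusted p = 0.617). Cells passing Sst had Trpm2 at 100 RPM or more in 4 of 12, against 24 of the 682 others. Of these 4, 3 were from session B and 1 from session A males, and 0 of the 3 Sst cells of session C males reached that level. All 8 Pvalb-passing cells with 100 RPM or more of Trpm2 were from session B.

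Combinations of channels in 1 cell were few at higher levels. Counting any read, 30.7% of the 694 cells had none of the 7 channels, 33.6% had 1, 20.7% had 2 and 9.80% had 3. Another 28 cells had 4, 7 had 5 and 1 had 6. These counts differed by session. In session B, where Trpm2 was also read in control wells, 11.9% of cells had none, against 29.3% to 44.4% in the other preparations. Session B held 17 of the 28 cells with 4 channels and 6 of the 7 with 5. At 100 RPM or more, 452 cells had none (65.1%), 28.7% had 1, 41 cells had 2 and 2 had 3. Of the cells that passed Mrgprd, 24 of 95 had 2 channels at that level. So did 6 of 252 Th cells, 4 Pvalb cells (3.51%) and 30 of 419 Tac1 cells, and 2 Tac1 cells had 3.

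Trpa1 and Trpc6 often shared a cell. Both were above 0 in 50 cells, which is 66.7% of the Trpc6 cells and 30.3% of the Trpa1 cells, and Trpa1 was found in 18.6% of cells without Trpc6. By preparation, 50%, 33.3%, 88.2%, 83.3% and 53.3% of Trpc6 cells had Trpa1, and 14.6%, 14.3%, 22.01%, 20.48% and 20.0% of those without. The share was larger with Trpc6 in each preparation, on 1 cell with both in session A females. At 100 RPM or more 6 cells had both, which is 20% of the Trpc6 cells, where 8.43% of cells without Trpc6 had Trpa1. Trpv1 and Trpa1, a pair often studied together in nociceptors, were both above 0 in 18 cells (27.7% of Trpv1 cells), where 23.4% of cells without Trpv1 had Trpa1. At 100 RPM or more of each there was 1 cell. That is 3.33% of the 30 Trpv1 cells, where 9.19% of cells without Trpv1 had Trpa1. The first share rests on that 1 cell. Trpm3 shared 14 cells with Trpv1, 14 with Trpc6 and 23 with Trpa1, or 25.9%, 25.9% and 42.6% of the Trpm3 cells. In cells without Trpm3 these channels were in 7.97%, 9.53% and 22.2%. Depth is shared by all genes of a cell and raises every overlap counted above 0.

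**Figure D5:**
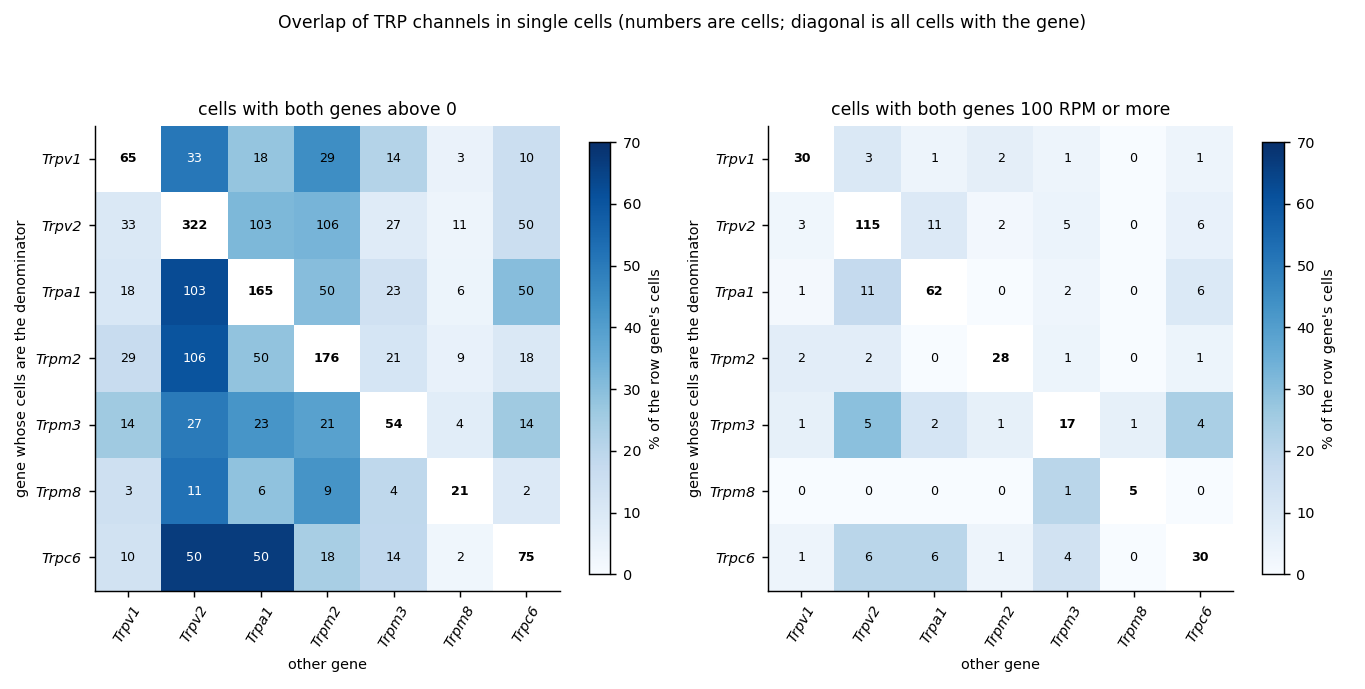
Overlap of the 7 channels in the 694 cells: percent of the cells of the row's channel that also held the column's channel, above 0 and at 100 RPM or more. Of the Trpc6 cells 66.7% also held Trpa1 above 0, whereas 27.7% of Trpv1 cells did.

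Cooling during picking asked whether handling temperature moved the channels. Session C was cooled and sessions A and B were not, so cooling, session and sequencing depth cannot be told apart. Only the Th gate had a profile in all 5 preparations, and 2 of the 7 channels passed the filter there. Trpv2 stood at 49.9 and 104.5 RPM in the cooled and 80.7, 40.3 and 39.6 RPM in the room temperature preparations, and the groups overlapped (log2 difference 0.45 ± 0.98, limma adjusted p = 0.888). Trpa1 stood at 6.94 and 6.94 RPM against 63.8, 0 and 37.9 RPM (-0.71 ± 1.21, limma adjusted p = 0.845). With limma 0 of these 2 were called, and 0 had an unadjusted p below 0.05, against 0.243% of all 9056 genes called higher and 0.442% lower. edgeR was not run for this comparison. An exact permutation test of 2 against 3 preparations cannot go below p = 0.2. Among the genes that were higher with cooling were the satellite glial gene Apoe (7.98) and the fibroblast genes Col1a2 (5.52) and Dcn (4.49), whose part was not tested.

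The rest of the family was mostly too low to test. Of 21 other TRP genes, 6 passed the filter on a mean of 5 RPM. The median difference of the 6 was -0.41 in Th, -0.50 in Mrgprd, -0.07 in Tac1 and 0.17 in Pvalb, where the medians over all genes were 0.03, -0.46, 0.16 and 0.14. Those of the 7 members were -0.73, 0.26, 1.29 and -1.16. Several members were at 0 in some gates, so these medians depend on the 5 RPM added.

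Partners and modulators of the channels were called in each of the 4 gates. Of 30 listed, 20 were tested, and no test set the list against other genes. The Mrgprd gate had 5 higher and 1 lower, where 1.67% of all genes were higher and 5.12% lower, and a list median of -0.18, beside -0.46 over all genes. Those higher were the protein kinase C gene Prkca (4.10), the G protein gene Gna14 (3.98), the phospholipase C gene Plcb3 (3.21), Pirt (2.31), whose product binds Trpv1 and Trpm8, and the sodium channel regulator Fgf13 (1.67). In the Tac1 gate, where the list median was 0.85, beside 0.16 over all genes, and 0 were lower, Tmem100, an adaptor between Trpa1 and Trpv1, was higher (3.42 ± 0.64, limma adjusted p = 0.00284). In the Th gate 0 were higher and 3 lower, Prkca (-2.35), Plcb3 (-2.30) and Gna14 (-2.16), where 0.495% of all genes were lower, with a median of -0.39, beside 0.03 over all genes. The Pvalb gate had 3 higher and 5 lower, where 3.98% of all genes were higher and 2.67% lower, and a median of -0.68, beside 0.14 over all genes. Among the 8 were Gna14 (-3.93), Prkca (-3.35), Pirt (-3.25) and the chloride channel gene Ano1 (2.32). With cooling 0 of 17 were called by limma.

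Genes whose level moved most like a channel's over 19 pooled profiles were named by correlation, as a description of profiles that share libraries and depth. For Trpc6 they were Otoa (r = 0.885), Dgkg (0.840) and F2rl2 (0.839), all highest in a Mrgprd profile. For Trpv1 they were Rgnef (0.913), Gusb (0.882) and Car8 (0.881), all highest in the 1 Sst profile. Trpm2 shared Rgnef (0.846) and was most like Htr1f (0.854), also highest in Sst, followed by Mrps24 (0.835). For Trpa1 they were Tuba1a (0.869), Tmem50a (0.834) and Gpd2 (0.820), all highest in Mrgprd. Trpm3 was most like 6720401G13Rik (0.888), Uap1l1 (0.860) and Zfyve16 (0.802), and Trpv2 like Bop1 (0.756), Usp22 (0.727) and Fam18b (0.724). For Trpm8 they were Smtn (0.995), Klf2 (0.988) and the endothelial gene Pecam1 (0.968), each highest in a Tac1 profile. The summed endothelial markers ranged from 0 to 338 RPM over the Tac1 profiles, while Pecam1 was at 0 in the 5 cells with the most Trpm8.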

How the data were processed

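Single cells of the mouse dorsal root ganglion were measured with 5′-end tag sequencing in 864 wells on plates with 10 names. Per the submitters' processing notes, reads were mapped with Bowtie (version not given in the sources used here) to build mm9. The authors deposited RPM for 25333 rows, of which 1217 repeat elements were left out and 23281 genes kept after copies were summed. The 4 deposited columns that held whole values alone, all of control wells, were treated as a score and not used as cells. The deposited values hold whole reads: 99.6% of them were whole within 0.1 in the 841 columns where reads were recovered, which left 23 columns not claimed, 8 of them kept cells.

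Of 799 single-cell wells 105 had fewer than 1000 genes and were dropped, which left 214, 45, 176, 184 and 75 cells in preparations 1 to 5. The 4 ranges of Tac1 held 275, 167, 188 and 64 cells, and the Tac1 gate 109. No 2 kept wells held identical values. Gates, pooled profiles (3 or more cells) and the filter on a mean of 5 RPM are as given above. limma 3.58.1 (trend and robust variances, R 4.3.3) was fitted with the preparation as a block, since the labels give same-numbered profiles a shared session and sex. The correlation of their deviations was 0.0475 to 0.191, with 11 of 22 pairs over 0.1. The residuals had 9 degrees of freedom, and 2 in the cooling comparison, where sex was a covariate. The labels do not say whether preparations came from separate animals. With the block, p-values of the gates measure only how far the differences between gates varied among preparations. Those of cooling measure only the spread between preparations, with sex as a covariate. As an alternative, edgeR 4.0.16 (quasi-likelihood) on the recovered reads called 70 genes in the Th gate, 301 in Mrgprd, 21 in Tac1 and 397 in Pvalb. Other alternatives changed the pseudocount, filter, gate, cells, sessions and block. Tested on simulated data for the Tac1 comparison with 200 genes changed by log2 3, limma recovered 73.5% of them (8 false calls, 9904 genes) and edgeR 78% (2 false calls, 9757 genes). Tables and figures were made with Python 3.11.15, pandas 2.3.3, numpy 2.4.6, scipy 1.17.1 and matplotlib 3.10.9.

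The members, gene lists and tests were chosen with earlier results of these data known. The genes named are the 7 members, the 3 genes most correlated with each (Pearson, over 19 profiles, each centred on its preparation), and at most 5 called genes per gate, by size, from each list of family members and partners. Marker genes are from the lists used to check the gates. Results of some listed genes are not reported here.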

Additional observations from a re-analysis of the deposited data

Results flagged for a closer look

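A preparation was singled out where its value lay farther from the other 3 or 4 than the usual range test allows. With normally spread values chance does this in about 1 of 20 groups. A group with all preparations but 1 at 0 is always singled out, so that rate does not hold here. Of 37 groups of values tested, 11 were singled out, a count that cannot be set against 1 in 20. Trpm2 accounted for 3: session B males had a mean of 43.3 RPM, a share of 72.7% of cells above 0, and 2.57 RPM in the Mrgprd gate where the other preparations had 0. Session B males also stood apart with 0.538 RPM of Trpv1, 0.449 RPM of Trpm8 and 0.0980 RPM of Trpc6 in the Pvalb gate and 6.11 RPM of Trpm3 in the Th gate. Session A males did so with 1.53 RPM of Trpm3 in the Pvalb gate. Session C females had 14.4 RPM of Trpv1 in the Mrgprd gate, where the others had 0, and 20.0% of their cells held Trpc6. Session C males had 0 RPM of Trpc6 in the Mrgprd gate, where the others had at least 113.4 RPM.

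The wells holding more than 1 cell, which no comparison used, carried 5 of the 7 channels above the level in the control wells. Their mean levels over 33 wells were 13.7 RPM for Trpv1, against 9.05 RPM in the controls and with 376 RPM in 1 well, 17.5 RPM for Trpv2, 10.6 RPM for Trpa1, 0.298 RPM for Trpm3 and 3.86 RPM for Trpc6, the last 4 at 0 in the controls. Trpm2 went the other way, with 25.3 RPM against 282.5 RPM in the controls, and Trpm8 was 0 in both. The control mean of Trpm2 rests on at most 3 reads in any well.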

How the results depend on the processing

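Shares of genes called by limma depended on the processing, and the causes were not tested. In the Th gate 1.59% of tested genes were called, and 0.454% with no filter, 0.678% at a gate of 50 RPM, 0.740% with 5 or more cells a profile, 0.625% thinned, 0.812% in sessions B and C alone, 3.66% by the highest gate gene, 2.42% with means of log2 values, 0.717% with edgeR, 3.84% with Tac1 set aside and 0.702 to 1.29% with 1 preparation left out. The Mrgprd gate had 6.79%, and 2.64% with no filter, 2.80% at 50 RPM, 4.45% at 200 RPM, 2.26% with 5 cells, 3.08% thinned, 2.91% in sessions B and C, 12.02% by highest gene, 3.08% with edgeR and 3.32 to 7.18% with 1 left out. The Tac1 gate had 0.495%, and 0.130% with no filter, 0.784% at 200 RPM, 0.170% with 5 cells, 0.215% with edgeR, 1.02% with Tac1 set aside and 0.153 to 0.482% with 1 left out. The Pvalb gate had 6.64%, and 3.45% with no filter, 4.37% at 50 RPM, 2.05% with 5 cells, 3.53% thinned, 2.72% in sessions B and C, 13.95% by highest gene, 17.9% with means of log2 values, 4.07% with edgeR, 14.7% with Tac1 set aside and 3.08 to 7.29% with 1 left out. Cooling had 0.685%, and 0.364% at a pseudocount of 1, 0 with no filter, 1.20% at 50 RPM, 0.405% at 200 RPM, 0.339% thinned, 1.20% with Tac1 set aside and 0 to 0.640% with 1 left out. Of the 7 channels, 0 were called in the Th gate and 2 with Tac1 set aside. In the Mrgprd gate 1 was called, 0 with no filter, at 200 RPM, with 5 cells or in sessions B and C, 2 with means of log2 values, edgeR or Tac1 set aside, and 0 to 1 with 1 left out. In the Tac1 gate 1 was called, 0 thinned or with edgeR, 2 with Tac1 set aside, and 0 to 1 with 1 left out. In the Pvalb gate 1 was called, 0 at 200 RPM, thinned or in sessions B and C, 2 by highest gene, 3 with Tac1 set aside, and 0 to 1 with 1 left out. With no replicate block the shares were 1.12% in Th, 4.75% in Mrgprd, 0.414% in Tac1 and 6.21% in Pvalb, with 0, 1, 1 and 1 channels called, so the block changed no count of channels. Mrgpra3 and Sst had too few cells to be tested as gated, and cooling could be tested in the Th gate alone.

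None of the differences that changed sign was a called one. Trpa1 in the Th gate (0.00059) was -0.090 at a pseudocount of 20, -0.10 at 200 RPM, -1.06 thinned, -0.0029 with 3000 or more reads, -0.17 by highest gene, -0.21 with means of log2 values, -0.19 without the block, -0.20 with Tac1 set aside and -0.26 to 0.37 with 1 preparation left out. In the Mrgprd gate Trpv1 was 0.43 with edgeR, Trpv2 -0.047 with 5 cells, -0.31 thinned and -0.36 by highest gene, and Trpm3 -1.01 at 50 RPM, -0.31 in sessions B and C and -0.32 to 0.85 with 1 left out. In the Tac1 gate Trpv2 was 0.087 by highest gene and 0.37 with edgeR, and Trpc6 -0.031 at a pseudocount of 20, -0.57 at 50 RPM, -0.39 thinned and -0.25 with means of log2 values. In the Pvalb gate Trpv2 was 0.39 thinned, 0.087 in sessions B and C and -0.33 to 0.19 with 1 left out, and Trpm8 0.0061 with 5 cells and 2.71 with edgeR. With cooling Trpv2 was -0.53 at 200 RPM and -0.17 to 1.27, and Trpa1 -2.19 to 1.26, with 1 left out. The Trpv1 difference in the Tac1 gate was 5.20 at a pseudocount of 1 and 1.74 at 20, and that of Trpa1 in Pvalb -4.42 and -1.43. Detection fell from above 0 to 10 RPM or more for Trpv2 (41.4%), Trpm2 (16.6%) and Trpm8 (1.73%). At 100 RPM or more, and thinned, it was 4.32% and 4.33% for Trpv1, 16.6% and 15.4% for Trpv2, 8.93% and 9.40% for Trpa1, 4.03% and 5.22% for Trpm2, 2.45% and 2.24% for Trpm3, 0.720% and 0.597% for Trpm8, and 4.32% and 3.58% for Trpc6. Depth limits the low channels: at 64.8 RPM a read in session A males, a cell at 0 may still hold the transcript.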
